A study of Mus musculus with 16 samples.

Results

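Classical cadherins and Epcam are the adhesion molecules followed here. They comprise 6 genes, Cdh1, Cdh2, Cdh3, Cdh5, Cdh11 and Epcam, of 27670 genes with a probe on the array. The members were chosen by gene name: every gene probe named for one of them was taken (Epcam stands under its older name Tacstd1), which gave 11 of 41174 gene probes. All 11 passed the filter on dim probes. Cdh1, Cdh3 and Epcam have 1 probe each, Cdh5 has 2, and Cdh2 and Cdh11 have 3 each, and every probe is given apart because probes of the same gene did not move together.

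Classical cadherins are single-pass membrane proteins whose extracellular repeats bind the same cadherin on a neighbouring cell in the presence of calcium. Their cytoplasmic tails bind beta-catenin and p120-catenin, and alpha-catenin links the complex to actin. E-cadherin (Cdh1) is the main cadherin of naive mouse pluripotent cells and of epithelia, and N-cadherin (Cdh2) is found in the later epiblast, in neural tissue and in mesenchyme. P-cadherin (Cdh3) is a placental and epithelial cadherin, VE-cadherin (Cdh5) is the cadherin of endothelial junctions, and Cdh11 is a mesenchymal cadherin. Epcam is an epithelial adhesion molecule that is not a cadherin and is present on undifferentiated embryonic stem (ES) cells. The replacement of E-cadherin by N-cadherin is a hallmark of the epithelial-to-mesenchymal transition and of the exit from the epiblast at gastrulation.

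The study compared ES cells of the NOD mouse, a strain used as a model of autoimmune diabetes, with ES cells of a non-NOD strain and with epiblast stem cells (EpiSC), which correspond to the later epiblast. RNA of 16 cultures was hybridised to 16 1-colour Agilent arrays. The groups were non-NOD 129 ES cells labelled mESM at passage 8 (n = 2) and labelled epiESM at passage 8 (n = 1), NOD ES cells (n = 3), non-NOD EpiSC at passages 12 and 20 (n = 2), and non-NOD iPS cells titled iPS_EpiSC (n = 2, called EpiSC iPS here). The titles of NOD ES replicates 1, 2 and 3 carry the codes 4K, 43 KP/CH and 85 KP. Those of EpiSC iPS replicates 1 and 2 carry 3M and 1K, and the labels explain none of these codes. The remaining groups were the NOD EpiSC-like ES line 1 at passages 5, 7, 9 and 10 (n = 4) and the NOD EpiSC-like iPS line 6 at passages 7 and 12 (n = 2). Each NOD EpiSC-like line is thus 1 line sampled at several passages. The labels do not say whether other replicates were separate derivations, and the p-values therefore describe the spread among these arrays, which may be technical. ES cultures had been preplated on gelatin to remove embryonic feeder fibroblasts, whereas EpiSC and EpiSC-like colonies had been separated mechanically.

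Levels are log2 signals relative to the 75th percentile of the same array, so 0 is the 75th percentile and each step of 1 is a doubling. Differences are called where the Benjamini-Hochberg adjusted p of limma, over 34289 probes, was under 0.05, and "rose" or "fell" is written of these alone. Of the gene spots, 26.3% to 88.5% per array were well above background. Markers of the pluripotent state followed the labels in part: against their ES cells, EpiSC and NOD EpiSC-like cultures had lower Zfp42, Esrrb, Nanog and Pou5f1 and higher Fgf5 and Otx2. Pou5f1, which EpiSC are known to keep, differed by -6.00 ± 0.57 (SE) on the log2 scale between NOD EpiSC-like and NOD ES cells (adjusted p = 1.4e-05). The NOD EpiSC-like lines were not alike in these markers. Mean Pou5f1 was -3.91 in the iPS line (well above background on 1 of 2 arrays), -1.18 in the ES line and 0.58 in EpiSC. Mean Fgf5 was -2.23 in the iPS line, 1.03 in the ES line, 2.93 in EpiSC and -3.00 in NOD ES. A pair of arrays stood apart from their labels. EpiSC iPS replicate 2 lay closer to NOD ES replicates 2 and 3 (SD of the log2 differences over probes, 0.39 and 0.40) than to EpiSC iPS replicate 1 (0.96), and NOD ES replicate 1 lay closer to EpiSC iPS replicate 1 (0.70) than to NOD ES replicates 2 and 3 (1.13 and 1.15). Only 40.5% and 26.3% of their gene spots were well above background, and member results and list counts of the first 2 comparisons below are given with and without both.

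The member probes lie in these places in the coordinates of the files (build mm7). Cdh1 (A_51_P137336, chr8:105268557-105268616) and Cdh3 (A_51_P433237, chr8:105154238-105154298) are neighbours among protein-coding genes, and so are Cdh5 (A_52_P248604, chr8:102744763-102744822; A_51_P309056, chr8:102744103-102744162) and Cdh11. The 3 Cdh11 probes, all designed on its RefSeq mRNA, are A_52_P437795 (chr8:101227384-101227443), A_51_P506204 (chr8:101227807-101227866) and A_52_P683146 (chr8:101261817-101261876). The former pair start 423 bases apart, and A_52_P683146 starts 34433 bases from the lowest of them. Of the Cdh2 probes, A_51_P262773 was designed on the RefSeq mRNA, and A_52_P164578 and A_52_P322725 on RIKEN cDNAs; the latter pair start 50291 and 182661 bases from it. The second of these cDNAs is described in the files as an unclassifiable transcript. The Epcam probe A_52_P447944 spans 829 bases of the genome (chr17:85952074-85952902). Exon and UTR assignments of the probes were not used here.

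RefSeq promoter sequences (GRCm38.p6) matched 1 of the 6 members, Epcam, and the sequence before its start is therefore the one shown. The E-box was marked because repressors that bind E-boxes were measured too, and a link between them and Epcam was not tested. Capitals mark the E-box CACCTG, searched on both strands, so that CAGGTG is the same motif on the other strand. The window is chr17:87635729-87635978 on the plus strand, the 250 bases before the annotated start.
Epcam promoter: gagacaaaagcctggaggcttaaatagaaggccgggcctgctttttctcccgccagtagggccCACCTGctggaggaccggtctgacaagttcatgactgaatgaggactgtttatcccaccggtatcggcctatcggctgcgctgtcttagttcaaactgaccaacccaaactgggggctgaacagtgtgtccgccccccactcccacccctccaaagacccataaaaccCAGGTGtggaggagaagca
The 2 matches begin 187 and 19 bases before the start. Of 32851 windows of the same length, 17.2% held at least 1 match and 2.06% at least 2. A match is a stretch of letters and not a measured binding site.

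Cdh1 was high in ES cells and lower in EpiSC and NOD EpiSC-like cultures, with the lowest levels in both NOD EpiSC-like lines. The 129 ES mESM arrays read 4.46 and 4.44. NOD ES replicates 2 and 3 read 4.16 each and replicate 1, the array that stood apart, 2.41. The EpiSC arrays read 2.31 and 2.35. The NOD EpiSC-like ES line read 0.88, 0.85, 0.53 and 0.78, and the iPS line 0.80 and 0.31. All 6 NOD EpiSC-like arrays were therefore below both EpiSC arrays, which in turn were below every ES array, while the levels of the NOD EpiSC-like lines overlapped each other. The single epiESM array stood between at 2.76, and the EpiSC iPS arrays split, at 1.86 and 4.28. The probe is spotted 10 times on each array, and the spots of an array had SDs of 0.05 to 0.11, a technical spread.

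Epcam separated ES from EpiSC and NOD EpiSC-like cultures without overlap. The 129 ES arrays read 3.54 and 3.50 (mESM) and 3.66 (epiESM), and the NOD ES arrays 3.03, 2.96 and 2.78. EpiSC read 0.90 and 1.30, the NOD EpiSC-like iPS line 1.35 and 1.19, and the NOD EpiSC-like ES line -0.18, 0.37, 0.09 and -0.02. The NOD ES range lay below the 129 ES range and above all EpiSC and NOD EpiSC-like arrays. EpiSC and the NOD EpiSC-like iPS line overlapped, and the NOD EpiSC-like ES line lay below both. The EpiSC iPS arrays, at 2.69 and 2.92, were at the level of NOD ES cells, and here the array that stood apart and its partner differed little.

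Cdh3 was a dim probe, well above background on 12 of 16 arrays. Its highest group was 129 ES mESM at -1.75 and -1.74, followed by EpiSC iPS at -1.54 and -2.76, the NOD EpiSC-like iPS line at -2.56 and -1.93, epiESM at -2.31 and NOD ES at -2.63, -2.33 and -2.35. The NOD EpiSC-like ES line spread from -4.28 to -2.31, and EpiSC were lowest at -4.08 and -3.58. Only the EpiSC range was clear of all ES arrays. Although Cdh3 and Cdh1 are neighbours on the chromosome, their order of groups differed: the NOD EpiSC-like iPS line was among the higher groups for Cdh3 and the lowest for Cdh1.

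**Figure D1:**
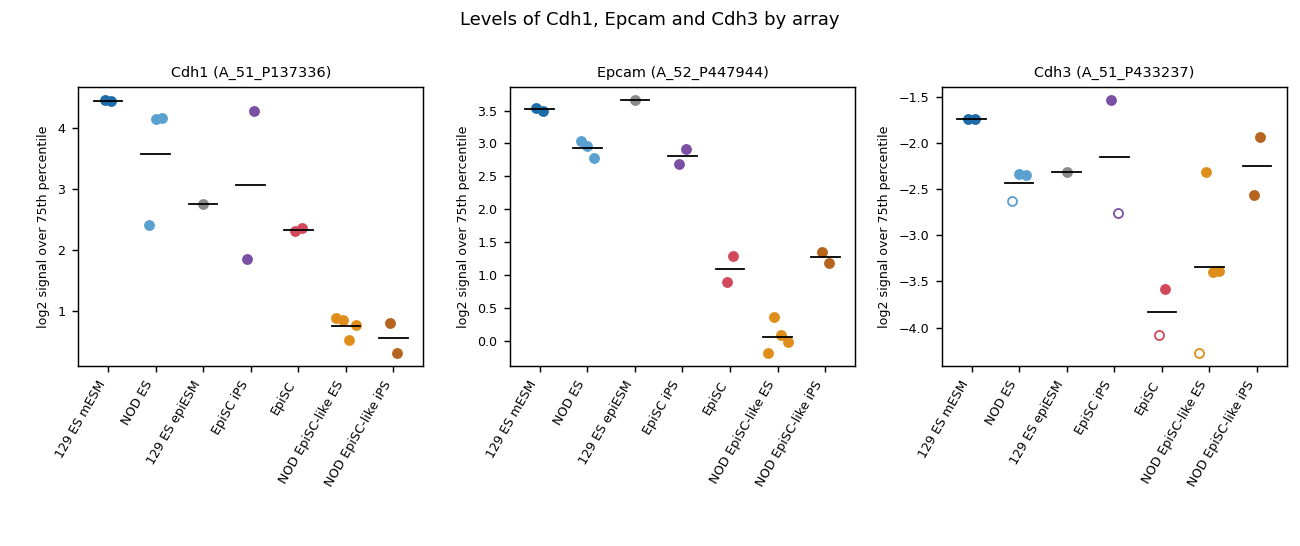
Log2 signal of Cdh1, Epcam and Cdh3 relative to the array's 75th percentile, by group. Each point is 1 array (filled, well above background; open, not), and the line is the group mean. Cdh1 and Epcam are high in the ES groups and low in EpiSC and both NOD EpiSC-like lines, the 2 EpiSC iPS arrays split for Cdh1 (1.86 and 4.28) and not for Epcam (2.69 and 2.92), and Cdh3 runs from -4.28 to -2.31 in the NOD EpiSC-like ES line.

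Cdh2 at its RefSeq probe A_51_P262773 ran the opposite way. EpiSC were highest at 1.82 and 1.99, the NOD EpiSC-like ES line read 1.74, 1.16, 1.15 and 1.09, and the NOD EpiSC-like iPS line -0.0027 and -0.24. No range of these 3 groups overlapped another. The epiESM array read -1.89 and the EpiSC iPS arrays -1.19 and -3.90, the latter not well above background. NOD ES read -1.79 on replicate 1, where the probe was not well above background, and -3.26 and -3.45 on replicates 2 and 3. The 129 ES mESM arrays were lowest at -4.42 and -4.15.

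The other Cdh2 probes did not show this order. A_52_P322725 and A_52_P164578 were well above background on only 2 arrays each, EpiSC replicate 2 and NOD EpiSC-like ES replicate 2, and their group means ran from -6.71 to -4.19 and from -7.10 to -4.59. Over the 16 arrays these probes had a Pearson r of 0.87 with each other and of 0.24 and 0.30 with A_51_P262773, a description in which the points share arrays and most values lie at background. No difference between groups is given for them.

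Cdh5 was near background in most cultures and measurable mainly in the NOD EpiSC-like lines. At A_52_P248604, all 6 NOD EpiSC-like arrays were well above background, at -1.16, -1.80, -1.77 and -1.70 in the ES line and -2.90 and -2.78 in the iPS line. Of the other 10 arrays only EpiSC replicate 2 was, at -4.34. The second probe, A_51_P309056, was well above background on 4 arrays, 3 of the NOD EpiSC-like ES line (-3.77, -4.33 and -4.26) and EpiSC iPS replicate 1 (-1.49). The probes thus shared the NOD EpiSC-like ES line and differed on EpiSC iPS replicate 1, where A_52_P248604 was not well above background.

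**Figure D2:**
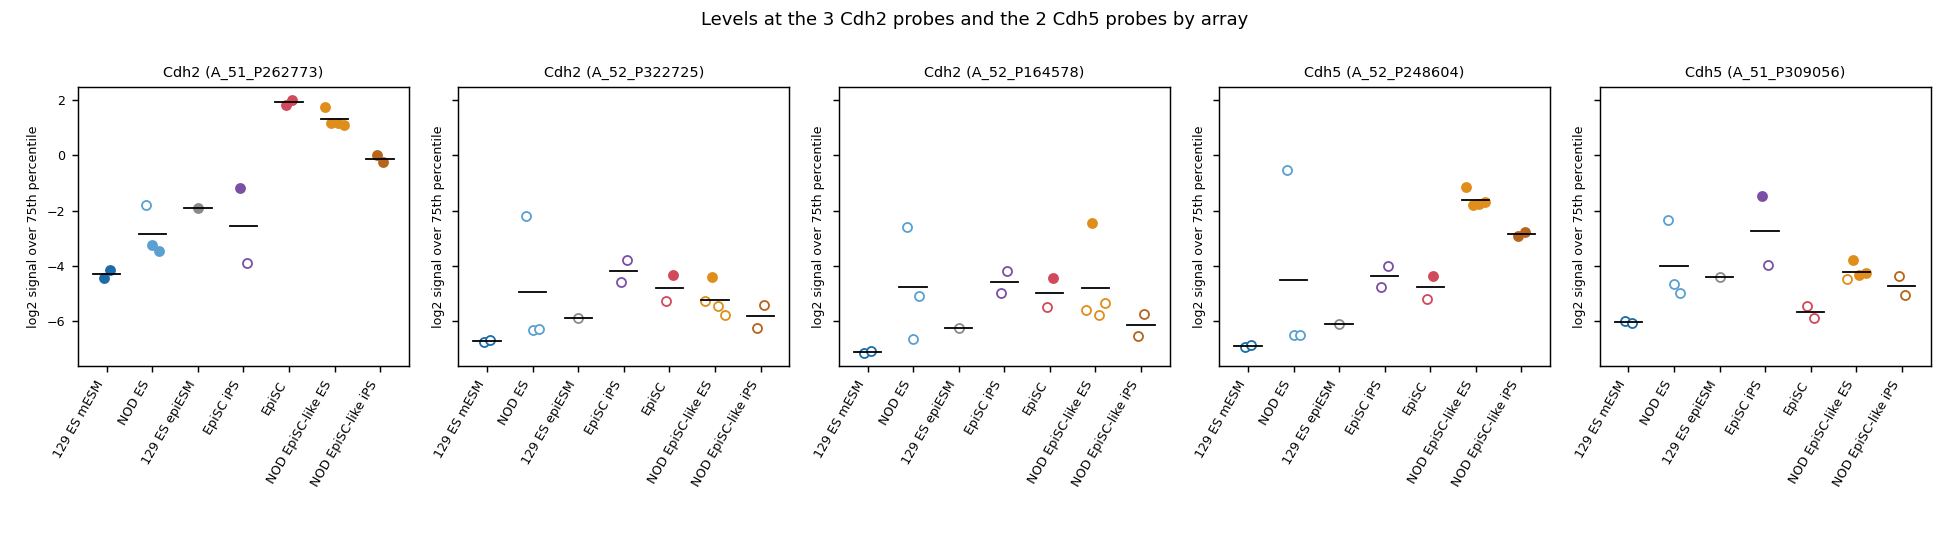
Log2 signal relative to the array's 75th percentile at the 3 Cdh2 and 2 Cdh5 probes, by group, with 1 point per array (filled, well above background; open, not) and the group mean as a line. Cdh2 A_51_P262773 climbs from -4.42 in 129 ES mESM to 1.99 in EpiSC, the other Cdh2 probes stay mostly open, and Cdh5 A_52_P248604 is filled on all 6 NOD EpiSC-like arrays.

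Cdh11 gave 2 different answers. At A_51_P506204 the NOD EpiSC-like ES line was highest (2.28, 2.33, 2.16 and 2.26), ahead of epiESM (1.05) and EpiSC (0.62 and 1.12), which overlapped, and the NOD EpiSC-like iPS line (-0.03 and -1.04). EpiSC iPS read 0.30 and -3.05, NOD ES -0.91, -2.61 and -2.76, and 129 ES mESM -5.62 and -4.50. The neighbouring probe A_52_P437795 followed it closely (r = 0.995 over 16 arrays), from 2.09 to 2.55 in the NOD EpiSC-like ES line down to -5.43 and -5.08 in mESM. At A_52_P683146, well above background on all 16 arrays, every group mean lay between 1.23 and 2.52. There the NOD EpiSC-like ES line, highest at the other probes, was lowest (1.26, 1.17, 1.27 and 1.20), and its r with them was -0.49 and -0.48. The epiESM array stood with the EpiSC-type groups at the former pair and below every array but those of the NOD EpiSC-like ES line at A_52_P683146 (1.64).

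**Figure D3:**
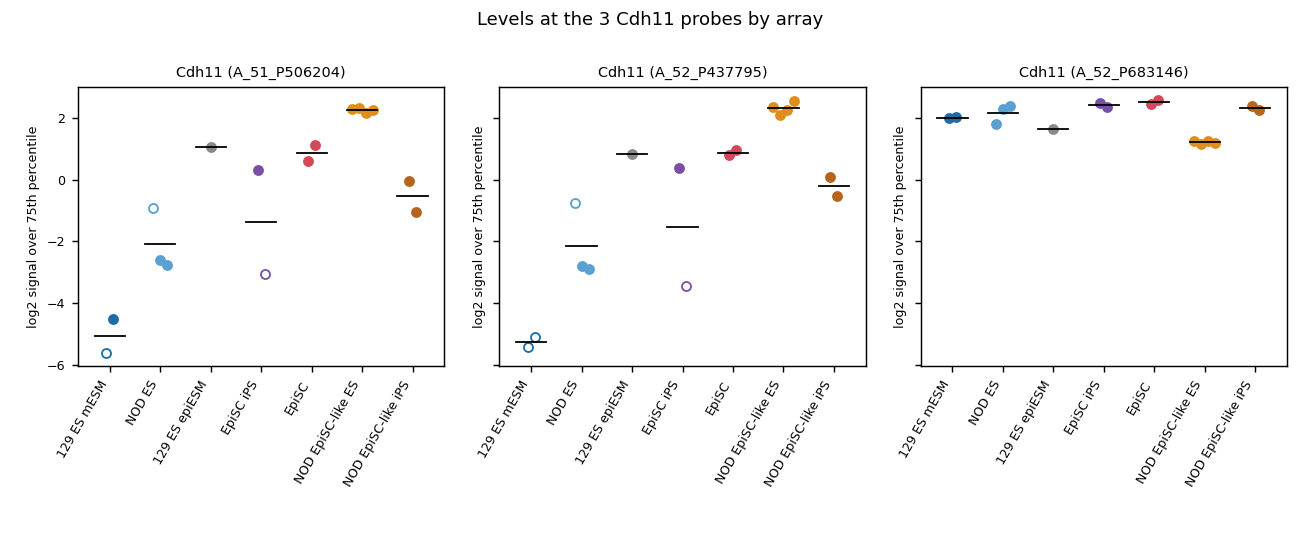
Log2 signal relative to the array's 75th percentile at the 3 Cdh11 probes, by group on a shared axis, with 1 point per array (filled, well above background; open, not) and the group mean as a line. A_51_P506204 and A_52_P437795 fall by several log2 units from the NOD EpiSC-like ES line to 129 ES mESM, while A_52_P683146 stays between 1.17 and 2.58 on every array.

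The first comparison, within the NOD strain, set the 6 NOD EpiSC-like arrays, both lines weighted equally, against the 3 NOD ES arrays. Cdh1 and Epcam fell. Cdh1 was 7.55-fold lower (log2 -2.92 ± 0.51 SE, adjusted p = 0.00085) and Epcam 4.78-fold lower (log2 -2.26 ± 0.18, adjusted p = 3.7e-06). Cdh2 at A_51_P262773 was 10.7-fold higher (log2 3.41 ± 0.53, adjusted p = 0.00039), and Cdh11 rose 7.74-fold at A_51_P506204 and 9.09-fold at A_52_P437795 (adjusted p = 0.0043 for each). These were 3 member probes higher and 2 lower of 11, where 15.2% of all tested probes were higher and 20.8% lower in this comparison. Cdh11 at A_52_P683146 (log2 -0.39 ± 0.17, adjusted p = 0.098) and Cdh3 (log2 -0.36, adjusted p = 0.53) did not pass, and the sign of Cdh3 turned under quantile and normexp scaling. Cdh5 at A_52_P248604 was at least 1.87-fold higher, since it was well above background on no NOD ES array, with an adjusted p of 0.13.

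Without the pair of arrays that stood apart, Cdh1 differed by -3.50, Epcam by -2.20, Cdh2 by 3.94 and the Cdh11 probes by 3.54 and 3.88 on the log2 scale. Cdh5 A_52_P248604 then passed (adjusted p = 7.8e-07), with no exact size because no NOD ES array had it well above background, and Cdh11 A_52_P683146 differed by -0.57 (adjusted p = 0.0011), so that 7 member probes passed, when 49.9% of all probes did. NOD ES replicate 1 alone, whose Cdh5 value of -0.53 was not well above background, decides this. With slide as a fixed block the differences of Cdh1, Cdh2 and both Cdh11 probes kept their signs and lost their calls (adjusted p = 0.059, 0.059, 0.096 and 0.12), and Epcam kept its own (-1.72, adjusted p = 0.011). Cdh5 A_52_P248604 gained a call there (adjusted p = 0.0081), as did Cdh2 A_52_P164578 (adjusted p = 0.042), well above background on 1 of the 9 arrays, when 24.7% of all probes passed. Within slide 4, which held 1 NOD EpiSC-like ES array and NOD ES replicates 2 and 3, Cdh1 differed by -3.31, Epcam by -2.51, Cdh2 by 4.51, and the Cdh11 probes by 5.01, 4.93 and -1.17 (A_52_P683146).

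The second comparison set EpiSC against 129 ES mESM (2 arrays each), both outside the NOD strain. It need not be the same change of state as the first, since the NOD EpiSC-like lines and EpiSC differed in pluripotency markers. Cdh2 rose 72.9-fold (log2 6.19 ± 0.73, adjusted p = 0.00019), Cdh11 60.8-fold at A_51_P506204 (adjusted p = 0.00098) and at least 56.3-fold at A_52_P437795 (adjusted p = 0.0013), where no mESM array was well above background. Epcam was 5.37-fold lower (log2 -2.42 ± 0.25, adjusted p = 7.2e-05) and Cdh3 4.25-fold lower (log2 -2.09 ± 0.55, adjusted p = 0.019). Cdh1 differed by -2.12 ± 0.70, with an adjusted p of 0.051 that misses the threshold. Without the pair of arrays that stood apart, which belong to neither group but enter the shared estimate of spread, the same difference had an adjusted p of 2.5e-05 and 9 member probes passed, when 43.2% of all probes did. Among the 9, Cdh2 A_52_P322725 and Cdh5 A_52_P248604 were each well above background on 1 EpiSC array and on no mESM array. Leaving out 1 array, EpiSC iPS replicate 1, replicate 2 or NOD ES replicate 1, also gave the call of Cdh1 (0.011, 0.011 and 0.017). Again 3 member probes were higher and 2 lower, against 10.5% and 11.8% of all probes. The call of Cdh3 was lost when any 1 of the 4 arrays was left out (adjusted p up to 0.12) and under quantile (0.26), normexp (0.66) and slide block (0.18). With slide as a block the Cdh11 calls were lost too (adjusted p = 0.087 and 0.088), when 7.61% of all probes were called. No slide held arrays of both groups.

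The difference between these comparisons, NOD EpiSC-like minus NOD ES less EpiSC minus mESM, was tested as an interaction. It called 0 of 11 member probes in limma, where 4.18% of all probes were higher and 6.04% lower. The member probes that follow had an unadjusted p under 0.05, a threshold at which the share of all probes was not counted. Cdh2 A_51_P262773 differed by -2.77 ± 0.90 (adjusted p = 0.078) and Cdh11 A_52_P683146 by -0.90 ± 0.29 (adjusted p = 0.072). Cdh11 A_51_P506204 differed by -2.97 (adjusted p = 0.13) and Cdh3 by 1.73 (adjusted p = 0.14). Cdh11 A_52_P437795 had an adjusted p of 0.16 and no exact size, since no mESM array had it well above background. For Epcam the interaction was 0.17 ± 0.31 and for Cdh1 -0.80 ± 0.87. With the pair of arrays that stood apart left out, 6 probes passed, when 31.8% of all probes did. Negative among them were Cdh1 (adjusted p = 0.0027), Cdh2 A_51_P262773 (0.00070) and Cdh11 A_52_P683146 (0.0010). So were Cdh11 A_51_P506204 (0.0076) and A_52_P437795 (0.00068), and Cdh5 A_52_P248604 was positive (0.0028).

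**Figure D4:**
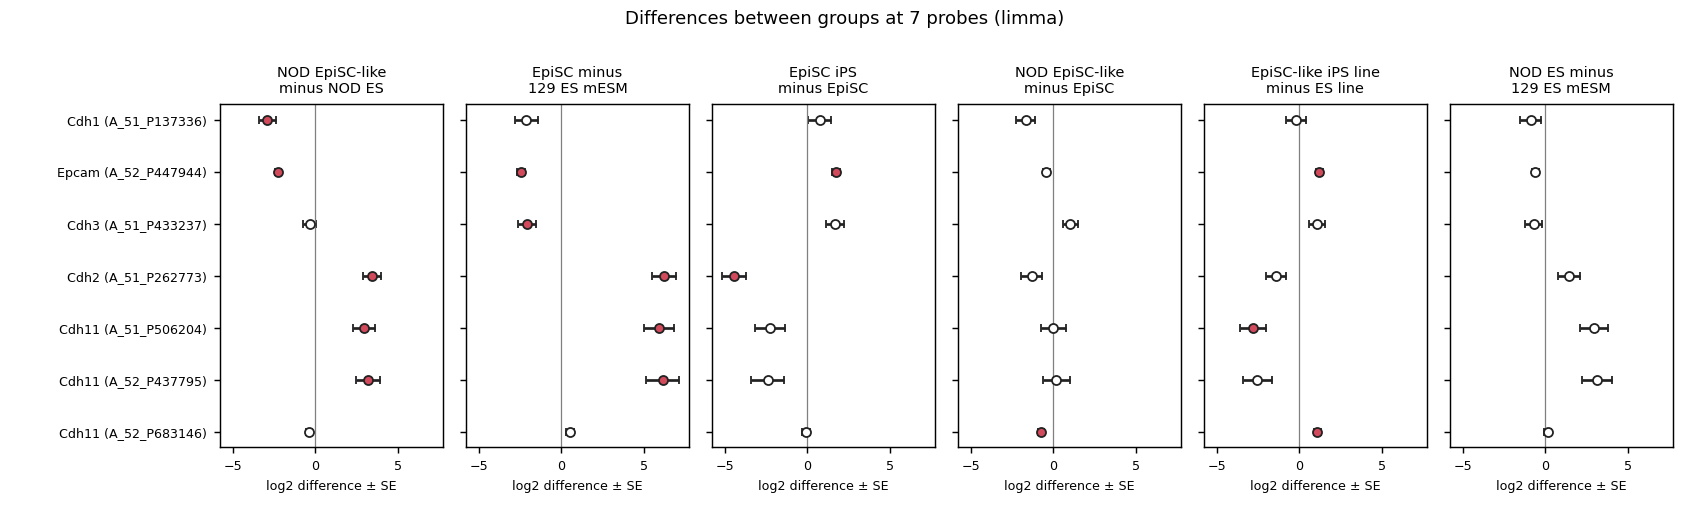
Log2 differences with their standard errors at 7 member probes in 6 comparisons (limma; red points have an adjusted p under 0.05, white points do not). Cdh1 and Epcam lie left of 0 and Cdh2 and 2 Cdh11 probes right of 0 in both ES-to-EpiSC comparisons, and the Cdh11 probes point opposite ways between the NOD EpiSC-like lines.

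The EpiSC iPS cultures were set against EpiSC, a comparison of lines that share the EpiSC name. Epcam was 3.27-fold higher in EpiSC iPS (log2 1.71 ± 0.25, adjusted p = 0.00081) and Cdh2 21.8-fold lower (log2 -4.45 ± 0.73, adjusted p = 0.0017). Of the markers of naive pluripotency, Zfp42 was at least 670.3-fold higher and Esrrb 8.56 higher on the log2 scale. The third call was Cdh5 at A_51_P309056, at least 2.91-fold higher (adjusted p = 0.033). It rested on EpiSC iPS replicate 1, the only array of the 4 with that probe well above background, and its adjusted p was 0.22 without it. The call was also lost without either EpiSC array (0.10 and 0.17) or either mESM array (0.051). In all 2 member probes were higher and 1 lower, against 10.5% and 8.18% of all probes. Cdh3 (log2 1.68, adjusted p = 0.056), Cdh1 (0.74, 0.48), Cdh11 A_51_P506204 (-2.24, 0.11) and A_52_P437795 (-2.39, 0.12) did not pass.

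The EpiSC iPS arrays lay to either side of EpiSC for Cdh1, and at the Cdh11 probes they read 0.30 and -3.05, and 0.39 and -3.43. Without the pair of arrays that stood apart, Epcam was 1.60 higher (adjusted p = 0.0013) and Cdh2 differed by -3.09 (adjusted p = 7.7e-05), and Cdh1 turned to -0.47 (adjusted p = 0.14). Cdh3 (adjusted p = 0.02) and Cdh5 A_51_P309056 (adjusted p = 5e-05) were higher, so that 4 member probes passed, when 38.9% of all probes did. That leaves 1 EpiSC iPS array against 2, whose spread is assumed to be that of the other groups. Without EpiSC iPS replicate 1 instead, both Cdh11 probes had lower values (adjusted p = 0.0048 and 0.0028), with no exact size because neither was well above background on the array that remained. With slide as a block Epcam (1.13, adjusted p = 0.081) and Cdh2 (-5.72, adjusted p = 0.051) lost their calls. The 3 probes called instead, when 23.8% of all probes were called, were well above background on no EpiSC iPS array and on 1 EpiSC array each. EpiSC and EpiSC iPS shared no slide.

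NOD EpiSC-like cultures differed from EpiSC at a single member probe in the fit of all arrays, Cdh11 A_52_P683146, by -0.75 ± 0.19 (adjusted p = 0.026). It was 0 probes higher and 1 lower of 11, against 6.86% and 6.99% of all probes. Its call was lost without either EpiSC array (adjusted p = 0.14 and 0.22), without NOD EpiSC-like iPS replicate 2 (0.069), NOD EpiSC-like ES replicate 4 (0.051) or either mESM array (0.052), with both mESM arrays averaged (0.052), with slide as a block (0.062, where Cdh5 A_52_P248604 was called instead at 0.017) and under normexp (0.064). The slide block called 10.3% of all probes. At A_52_P683146 the iPS line alone differed by -0.20. Cdh1 differed by -1.67 ± 0.58 (adjusted p = 0.081) and Cdh2 by -1.32 ± 0.61 (adjusted p = 0.17), and for both every NOD EpiSC-like array was below both EpiSC arrays. Within slide 1 (2 NOD EpiSC-like arrays and EpiSC passage 12) Cdh1 differed by -1.47 and Cdh2 by -0.94. Within slide 3 (1 array each) the values were -1.83 and -0.84. Without the pair of arrays that stood apart, which belong to neither side, Cdh1, Cdh2, Cdh5 A_52_P248604 (2.54) and Cdh11 A_52_P683146 passed (adjusted p = 6.5e-05, 0.00083, 7.5e-05 and 0.0005), as did Cdh5 A_51_P309056 (higher, adjusted p = 0.0045; well above background on no EpiSC array), when 38.4% of all probes did. Cdh11 at A_51_P506204 differed by -0.01 ± 0.76, and its sign turned under quantile scaling and in the deposited table.

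The NOD EpiSC-like lines differed from each other at Epcam and Cdh11. In the iPS line Epcam was 2.31-fold higher than in the ES line (log2 1.21 ± 0.21, adjusted p = 0.0022), and no array of either line overlapped the other. Cdh11 was 2.13-fold higher at A_52_P683146 (log2 1.09 ± 0.20, adjusted p = 0.0027) and 6.93-fold lower at A_51_P506204 (log2 -2.79 ± 0.79, adjusted p = 0.025), and A_52_P437795 differed by -2.53 ± 0.86 (adjusted p = 0.051). So 2 member probes rose and 1 fell, against 13.6% and 11.1% of all probes, and the calls of Cdh11 pointed opposite ways. Under normexp A_52_P683146 turned to -0.23 and the calls of Epcam (0.17) and A_51_P506204 (-1.91, adjusted p = 0.073) were lost. Without iPS replicate 1 or replicate 2 the call of A_51_P506204 was lost (adjusted p = 0.052 and 0.22), as it was with slide as a block (-2.16, adjusted p = 0.35). Once the pair of arrays that stood apart was left out, A_52_P437795, Cdh2 (-1.41) and Cdh5 A_52_P248604 (-1.24) passed too (adjusted p = 1.7e-05, 0.00051 and 0.0035), when 48.7% of all probes did. The slide block called 10.2% of all probes. Within slide 1, which held passage 7 of both lines, Epcam differed by 1.53 and the Cdh11 probes by 1.11 (A_52_P683146), -2.31 and -2.27.

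NOD ES against 129 ES mESM called 0 member probes in limma, where 4.88% of all probes were higher and 2.7% lower. Those that follow had an unadjusted p under 0.05, a threshold at which the share of all probes was not counted. They were Cdh11 A_51_P506204 (log2 2.96 ± 0.83, adjusted p = 0.054) and A_52_P437795 (at least 6.99-fold higher, adjusted p = 0.06). Epcam (-0.60 ± 0.23, adjusted p = 0.14) and the second Cdh5 probe, which was well above background in neither group, were the others. Both NOD ES arrays that kept to their label were above both mESM arrays at these Cdh11 probes. Without the pair of arrays that stood apart, Cdh11 A_51_P506204 (2.38, adjusted p = 0.0032), A_52_P437795 (no mESM array well above background, adjusted p = 0.00026), Cdh2 (0.93, adjusted p = 0.02) and the second Cdh5 probe (background on every array of both groups, adjusted p = 0.018) passed, when 23.1% of all probes did. The groups shared no slide, and with slide as a block, estimated through the other groups, these Cdh11 probes had adjusted p = 0.61 and 0.54. In that setting 0 of 34289 probes were called, so it does not single out these probes. The 129 ES mESM arrays serve in this comparison and in that of EpiSC, and NOD ES cells in this and the first.

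Genes that act with the members were taken from lists, with 1 probe per gene. In the first comparison 15.2% of all tested probes rose and 20.8% fell, and in the second 10.5% and 11.8%. Of 7 transcription factors known to repress Cdh1, 5 rose and 1 fell in NOD EpiSC-like against NOD ES cells (median log2 difference 2.03, all probes -0.28), and 5 rose and 0 fell in EpiSC against mESM (2.30, all probes -0.34). Zeb2 rose by 3.33 and 4.80 in these comparisons, Twist1 by 2.98 in the first and Snai1 by 2.93 in the second. Tcf3, the E2A factor, fell by 0.83 in the first. Leaving out the pair of arrays that stood apart, 5 rose and 1 fell in the first and 7 rose in the second, when 49.9% and 43.2% of all probes were called. With slide as a fixed block 1 rose in the first and 2 in the second and 0 fell, when 24.7% and 7.61% of all probes were called.

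Partners of the cadherin tail moved both ways. Of 14, 4 rose and 5 fell in the first comparison (median -0.06) and 2 rose and 2 fell in the second (0.13). Ctnna2, the neural alpha-catenin, rose by 4.59 and 3.93, and Vezt, a membrane protein of adherens junctions, by 1.17 and 1.16. Ctnna1, the epithelial alpha-catenin, fell by 1.12 in the first, as did the p120 relative Pkp4 by 1.73. Jup (plakoglobin) and Ctnnd1 (p120-catenin) fell by 1.72 and 1.47 in the second. Beta-catenin (Ctnnb1) did not pass in either (0.06 and 0.94, adjusted p = 0.91 and 0.17). The counts without the pair were 6 higher and 6 lower in the first and 6 and 3 in the second, and with the slide block 1 and 0 in each. Among all probes 15.2% rose and 20.8% fell in the first comparison, and 10.5% and 11.8% in the second. Called either way were 49.9% and 43.2% without the pair and 24.7% and 7.61% with the block.

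Among 7 genes that act with Epcam, 1 rose and 3 fell in the first comparison (median -0.71) and 1 rose and 5 fell in the second (-1.54). Both counts were the same without the pair, and with the slide block 0 rose and 3 and 1 fell. The matriptase gene St14 fell by 2.16 and 3.54, and its inhibitor Spint1 by 2.59 in the first. In the second Spint2, also a matriptase inhibitor, fell by 2.44. Cd44, a hyaluronan receptor, rose by 1.65 and 4.95. Of 14 other epithelial genes 0 rose and 8 fell in the first comparison (median -0.99), with Grhl2, an epithelial transcription factor, at a difference of -2.79. In the second 1 rose, the desmosomal Dsp by 1.49, and 4 fell (median -0.82), with Pkp3, a plakophilin of desmosomes, at -3.39 and Grhl2 at -2.72. Without the pair 1 rose and 7 fell in the first and 1 and 4 in the second, and with the slide block 1 and 2, and 0 and 1. Among all probes 15.2% rose and 20.8% fell in the first comparison, and 10.5% and 11.8% in the second. Called either way were 49.9% and 43.2% without the pair and 24.7% and 7.61% with the block.

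Of 12 further cadherins measured (Cdh9, Cdh17 and Cdh18 did not pass the filter on dim probes), 3 rose and 1 fell in the first comparison (median 0.27) and 4 rose and 0 fell in the second (0.98). Cdh13, the cadherin without a cytoplasmic tail, rose by 3.92 and 4.96, and Cdh22 by 3.83 in the first. Cdh7 fell by 1.41 in the first, a call that was lost without the pair, when 5 rose and 0 fell (6 and 1 in the second). With the slide block 5 and 3 rose and 0 fell. Cdh10 was at least 10.5-fold higher in the second. Among all probes 15.2% rose and 20.8% fell in the first comparison, and 10.5% and 11.8% in the second. Called either way were 49.9% and 43.2% without the pair and 24.7% and 7.61% with the block.

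The counts that follow are from the fit of all arrays. Beside them, 10.5% of all tested probes were higher and 8.18% lower in EpiSC iPS against EpiSC. The shares were 6.86% and 6.99% in NOD EpiSC-like against EpiSC and 13.6% and 11.1% between the NOD EpiSC-like lines. In NOD ES against mESM they were 4.88% and 2.7%. In EpiSC iPS against EpiSC, 0 of 7 repressors rose and 3 fell, with Zeb2 at a difference of -3.21, while 4 of 14 epithelial genes rose and 2 fell, with Pkp3 higher by 4.76. Of the adherens partners 1 rose and 3 fell there, of the Epcam partners 1 rose and 0 fell, and of the further cadherins 1 rose and 3 fell. In NOD EpiSC-like against EpiSC the counts higher and lower were 0 and 2 for adherens partners, 2 and 1 for Epcam partners, 0 and 2 for repressors, 1 and 1 for epithelial genes and 1 and 0 for further cadherins. Between the NOD EpiSC-like lines, 3 of 7 Epcam partners rose in the iPS line and 0 fell, with Spint2 higher by 2.32, beside the higher Epcam. There the counts were 3 and 3 for adherens partners, 0 and 2 for repressors, 2 and 2 for epithelial genes and 0 and 3 for further cadherins. In NOD ES against mESM 1 Epcam partner (Cd44) and 1 repressor (Snai1) rose, 1 epithelial gene rose and 1 fell, and 2 of the further cadherins rose.

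Markers of fibroblasts, the feeder cells that were removed from the ES cultures and that are known to express Cdh2 and Cdh11, moved with several members. All 15 listed fibroblast genes passed the filter, and 12 rose and 0 fell in the first comparison (median 2.33) and 14 rose in the second (5.09). Without the pair 15 and 14 rose, and with slide as a fixed block 2 and 3 did (medians 2.79 and 4.86). Among all probes 15.2% rose in the first comparison and 10.5% in the second. Called either way were 49.9% and 43.2% without the pair and 24.7% and 7.61% with the block. Lum, a stromal proteoglycan, rose by 5.93 and 6.04, and Dcn, decorin, by 5.62 and 7.51. Their mean level was -2.42 and -2.33 on the mESM arrays, -0.20 to 1.23 in NOD ES, 2.06 in epiESM, -0.27 and 2.77 in EpiSC iPS and 2.38 in both EpiSC arrays. It was 2.43 and 2.64 in the NOD EpiSC-like iPS line and 3.44 to 3.73 in the ES line. Postn and Col6a1 were well above background on no mESM array and Pdgfra on no NOD ES array. Over the 16 arrays this mean had an r of 0.98 with Cdh11 A_52_P437795, 0.97 with A_51_P506204, 0.90 with Cdh2, -0.91 with Cdh1, -0.80 with Epcam and -0.39 with Cdh11 A_52_P683146, as a description in which all points share their groups. The mean of 7 markers of the pluripotent state had an r of 0.91 with Cdh1 and 0.84 with Epcam. With Cdh2 its r was -0.81 and with Cdh11 A_52_P437795 -0.68. In whole cultures fewer cells of a type and less RNA per cell cannot be told apart, and the part of fibroblasts in the member differences was not tested. The epiESM array, an ES culture with fibroblast genes near the EpiSC level, had Cdh11 A_51_P506204 at the EpiSC level (1.05), Epcam at the ES level (3.66) and Cdh1 at 2.76, between EpiSC (2.33) and mESM (4.45). On this single array Cdh2 A_51_P262773 read -1.89, between mESM (-4.29) and EpiSC (1.90). Cdh11 A_52_P683146 read 1.64 there, below mESM (2.01) and EpiSC (2.52).

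**Figure D5:**
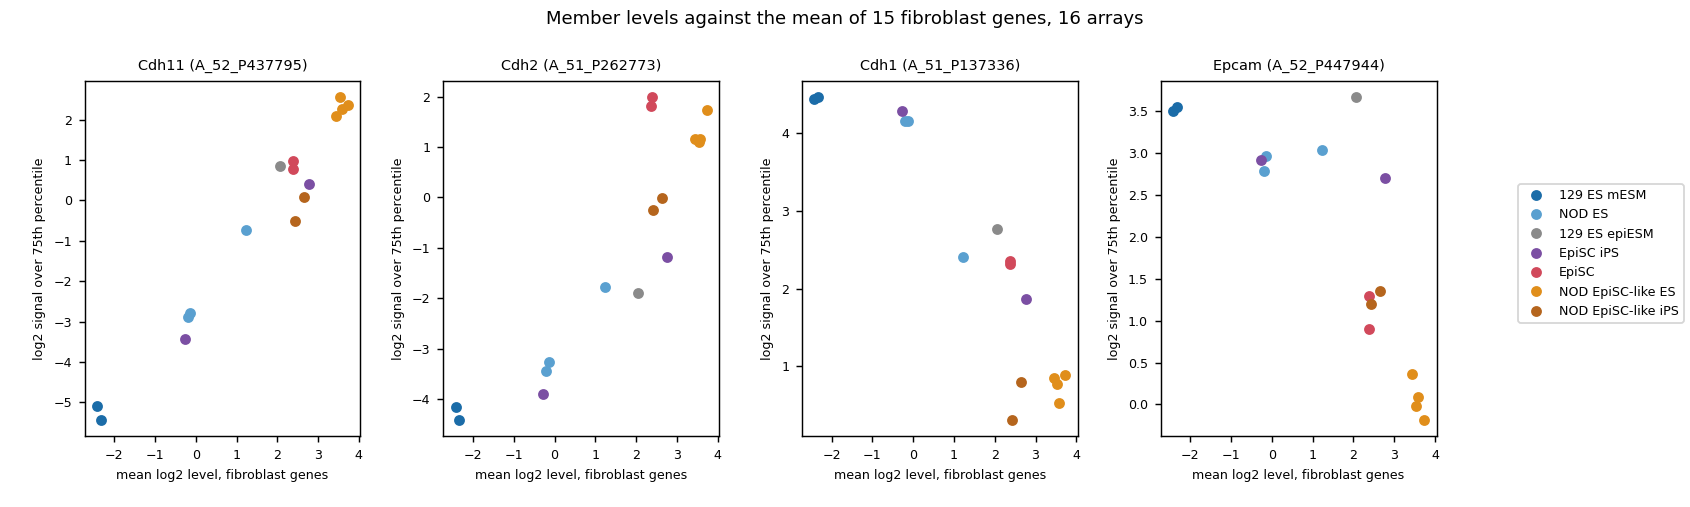
Log2 signal of 4 member probes (vertical, relative to the array's 75th percentile) against the mean log2 level of 15 fibroblast genes (horizontal), 1 point per array, coloured by group. Cdh11 A_52_P437795 lies along a line from 129 ES mESM to the NOD EpiSC-like ES line (r = 0.98), and on the epiESM array, where the fibroblast mean is 2.06, Epcam reads 3.66.

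Neural markers moved with Cdh2 and against Epcam. Of 9, 6 rose and 0 fell in each of the first 2 comparisons (medians 2.76 and 4.00), with Fabp7, a radial glial fatty acid binding protein, higher by 7.92 and 9.47. Their mean over arrays had an r of 0.96 with Cdh2, -0.95 with Epcam, -0.87 with Cdh1 and 0.84 with Cdh11 A_52_P437795. It ranged from -2.84 to -1.22 in NOD ES, was 1.22 and 1.31 in EpiSC, 0.72 and 0.75 in the NOD EpiSC-like iPS line and 1.56 to 1.71 in the ES line. Without the pair 7 rose in each, and with the slide block 5. Among all probes 15.2% rose in the first comparison and 10.5% in the second. Called either way were 49.9% and 43.2% without the pair and 24.7% and 7.61% with the block. Sox1, a defining neural gene, did not pass in either comparison (0.37 and -0.65). Of 8 genes of extraembryonic endoderm 4 rose in the first comparison and 1 in the second. Without the pair 5 rose in the first, and 4 rose and 1 fell in the second; with the slide block 4 and 2 rose. Their mean was -1.94 to -1.50 in the NOD EpiSC-like ES line, -1.05 and -0.92 in the iPS line and -4.04 to -2.09 in NOD ES. Its r was -0.87 with Cdh1, -0.74 with Epcam, 0.69 with Cdh2 and 0.81 with Cdh5 A_52_P248604. The part of these cells was not tested.

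Endothelial genes moved both ways. Of 10 measured (Tie1 did not pass the filter), 1 rose and 4 fell in NOD EpiSC-like against NOD ES cells, among them Kdr (the VEGF receptor), higher by 1.80, and Pecam1, at a difference of -2.70. Without the pair 3 rose and 4 fell, and with the slide block 2 and 3. Among all probes 15.2% rose and 20.8% fell there, and 49.9% were called without the pair and 24.7% with the block. The mean of the endothelial genes was -2.59 to -1.86 in the NOD EpiSC-like ES line, -2.29 and -1.80 in the iPS line and -2.004 to -1.004 in NOD ES, and its r with Cdh5 A_52_P248604 was -0.08. The same probe had an r of 0.81 with the extraembryonic endoderm mean and of 0.72 with both the fibroblast and the neural mean. Pecam1 is also known in ES cells. Of the 10 genes, 8 were well above background on both NOD EpiSC-like iPS arrays, and Pecam1 and Sox18 on neither. In the ES line Sox18 was so on all 4 arrays and Pecam1 on 1. Emcn, an endothelial sialomucin, was well above background on all 6 NOD EpiSC-like arrays and on 0 of 3 NOD ES arrays. The part of endothelial cells in the Cdh5 values was not tested.

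Genes whose levels over the 16 arrays were most like a member's were taken from 27621 probes well above background on at least 8 arrays. For Cdh1 they were Calca (r = 0.98), Eras, an ES cell Ras (0.98), and a probe without a gene symbol (0.98). For Epcam they were Sgo2a (0.99), Alkbh2 (0.98) and Trim6 (0.98), and for Cdh2 Ptprd, Ier5 and Sdsl (0.99 each). Cdh3 was most like Git2 (0.97), Rinl (0.97) and Dctd (0.95), and Cdh5 A_52_P248604 like Akr1c13 (0.96), Tcp11l2 (0.95) and Dnaja4 (0.93). The Cdh11 probe with the highest mean, A_52_P683146, was most like Zkscan17 (0.95), Mvd (0.91) and BC025885 (0.90). At A_52_P437795, looked up after the Cdh11 probes were seen to disagree, the most alike were the extracellular matrix genes Fbn1 (0.99) and Col8a1 (0.99) and the anthrax toxin receptor Antxr1 (0.99). Among the members themselves Cdh1 and Epcam had an r of 0.82, and Cdh2 had -0.84 with Cdh1, -0.89 with Epcam and 0.91 with Cdh11 A_52_P437795.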

How the data were processed

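Spot intensity values came from Feature Extraction 10.1.1.1, which subtracted a fitted background and applied a multiplicative detrend within each array, per the file headers. Use of limma, with no settings, is given in the submitters' processing notes. Deposited alongside is a table of log2 values; judged from the values, it is quantile normalized (every array has a median of 6.93).

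Control spots (1639 of 45018) were removed, spots of a probe were averaged, and log2 of the processed signal was taken minus the 75th percentile of its array. Probes well above background on at least 2 of 16 arrays were tested (34289 of 41174). limma 3.58.1 (R 4.3.3) estimated a mean for each of the 7 groups, and p-values were adjusted by Benjamini-Hochberg over all tested probes. Where no array of a side was well above background, a fold is a lower bound: the bright mean against, on each dim array, the lowest signal among probes well above background there or the probe's own if higher. Precision is limited by how many arrays each group has. Scripts were tested on simulated data.

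The members and lists were chosen with earlier results of these data known. Every member probe is named. From each list of partners, repressors, epithelial genes and further cadherins, the 2 largest called rises and falls are named in the first 2 comparisons and at most the largest each way elsewhere. A result that this rule would name is not reported here. The 3 genes most like the brightest probe of a member are named by Pearson r. Ctnnb1, the cell type markers named and the pair Cd44 and Snai1 serve as checks. Slides come from the file headers. Gene names were updated through RefSeq (22951 probes by accession, 6659 by symbol, 3109 by synonym, 8455 left as in the files). Alternatives were normexp (offset 50), quantile normalization, the deposited table, other filters (all probes, or at least 8 arrays), 1 probe per gene, slide as a fixed or random block, averaged mESM arrays, either NOD EpiSC-like line alone, and arrays left out.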

Additional observations from a re-analysis of the deposited data

Results flagged for a closer look

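In the NOD EpiSC-like ES line, the only group of at least 4 arrays, 3 of 11 member probes had 1 array far from the others by Dixon's test, which flags about 1 in 20 such groups by chance. Cdh2 A_51_P262773 read 1.74 on replicate 1 (passage 7), with the nearest other array at 1.16. Cdh5 A_52_P248604 read -1.16 on the same array, with the nearest at -1.70. Cdh2 A_52_P164578 read -2.46 on replicate 2 (passage 10), with the nearest at -5.33 and that probe well above background on replicate 2 only. That array also had the highest share of gene spots well above background, 88.5%.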

How the results depend on the processing

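Counts of called member probes moved as follows, and the cause was not tested unless fewer probes or arrays were used by construction. The share of all probes called moved too. In NOD EpiSC-like against EpiSC it was 38.4% without both arrays that stood apart and 10.3% with slide as a fixed block. In EpiSC against mESM these shares were 43.2% and 7.61%. For settings other than these and the fit of all arrays it was not counted, so the counts cannot be read as particular to the members. For NOD EpiSC-like against NOD ES (5 probes) the count was 3 with 1 probe per gene, 3 with slide as a fixed block (Epcam, and 2 that gained a call) and 3 for the iPS line alone. For EpiSC against mESM (5) it was 2 with the fixed block and 9 without both arrays that stood apart. For NOD EpiSC-like against EpiSC (1) it was 0 under normexp, 3 in the deposited table, 0 with mESM averaged, 5 without both arrays, 2 for the ES line alone and 0 for the iPS line alone. Between the NOD EpiSC-like lines (3) it was 0 under normexp, 5 in the deposited table and 6 without both arrays. For NOD ES against mESM (0) it was 1 in the deposited table, 2 on probes measured on at least 8 arrays and 4 without both arrays. For the interaction (0) it was 2 in the deposited table, 6 without both arrays, 1 for the ES line alone and 2 for the iPS line alone. Leaving out each array in turn gave 5 to 7, 4 to 9, 2 to 4 (EpiSC iPS against EpiSC), 0 to 3, 2 to 5, 0 to 2 and 0 to 4 probes, in the order of the comparisons.

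Some differences changed sign. In NOD EpiSC-like against NOD ES, Cdh3 was 0.64 under normexp, 0.61 under quantile, 0.84 with the fixed block and 0.19 for the iPS line alone, where Cdh11 A_52_P683146 was 0.16. In EpiSC iPS against EpiSC, A_52_P683146 was 0.54 with the fixed and 0.027 with the random block, Cdh5 A_51_P309056 was -0.16 with the fixed block, and Cdh1 was -0.47 without both arrays and ranged from -0.47 to 1.95 with single arrays left out. In NOD EpiSC-like against EpiSC, Cdh11 A_51_P506204 was 0.024 under quantile, 0.090 in the deposited table, 0.27 with the fixed and 0.074 with the random block, 1.39 for the ES line alone and -0.26 to 0.24 with single arrays left out. For the iPS line alone, A_52_P437795 was -1.09 and Epcam 0.17 there. Between the NOD EpiSC-like lines, normexp gave 0.92 for Cdh5 A_52_P248604 and -0.23 for A_52_P683146, and Cdh1 was 0.021 with the fixed block and -0.45 to 0.044 with single arrays left out. In NOD ES against mESM, A_52_P683146 was -0.0035 under normexp and -0.0092 in the deposited table. Under normexp the SD of log2 levels on 3 NOD EpiSC-like arrays was 0.46, 0.69 and 1.01, against 1.69 to 2.24 on the others. No paired analysis was possible because the labels give the compared groups no shared replicate numbers that tie their samples.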
